A study of Mus musculus with 12 samples.

Results

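The comparison set livers of Tmprss6 knockout mice (Tmprss6-/-, here KO) that received lipopolysaccharide (LPS) against livers of iron-deficient wild-type littermates (here IDA) that received the same LPS. Liver RNA had been hybridised to Illumina MouseWG-6 v2 bead arrays, 1 array per liver, and the members of the comparison were the 15533 of 45281 probes with a detection p under 0.01 on at least 1 of the 6 LPS arrays. The 4 groups of the series, with 3 livers each, were KO mice 6 h after 0.1 mg/kg LPS from E. coli O26:B6, IDA mice 6 h after the same LPS, KO mice after saline and IDA mice after saline. All mice were 7 weeks old and of a mixed 129/Ola and C57BL/6 background. The KO mice carried a Tmprss6 disruption in every tissue and ate an iron-replete diet, whereas the wild-type mice had eaten an iron-deficient diet for 3 weeks from the age of 4 weeks. Genotype and diet therefore cannot be told apart in any value below, and p-values measure the spread between these livers.

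LPS, a component of the outer membrane of Gram-negative bacteria, is handed by LPS-binding protein and CD14 to the receptor TLR4 with its partner MD-2. From there MyD88 leads to the transcription factor NF-kB, which switches on cytokines, chemokines and its own inhibitors, and a second branch leads to interferon beta and the interferon-stimulated genes. In the liver the resulting interleukin-6 drives the acute-phase response, and both interleukin-6, through STAT3, and bone morphogenetic proteins (BMP), through SMAD proteins, raise hepcidin. Hepcidin is the hormone that removes the iron exporter ferroportin from cell surfaces, and Tmprss6 encodes matriptase-2, a hepatocyte membrane protease that holds BMP signalling and hepcidin down. Mice without it have high hepcidin and iron-deficient blood, and wild-type mice on an iron-poor diet are iron deficient with low hepcidin, which is the reason for setting one against the other.

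The 6 LPS arrays had 14423, 14318 and 13544 probes detected in the KO livers, against 12641, 12782 and 13089 in the IDA livers. Log2 intensities correlated across probes at 0.983 to 0.988 among the KO arrays, at 0.986 to 0.989 among the IDA arrays and at 0.948 to 0.965 between the groups. Hepatocyte markers summed to linear intensities of 414407 to 431471 in the KO livers and 407028 to 416335 in the IDA livers, and none of the 14 was undetected in either group. One fact about the saline arrays touches every comparison with them. The Y-linked gene Eif2s3y had log2 intensities of 9.70 to 10.16 on all 6 LPS arrays, but of 4.94, 4.80 and 9.68 in the KO saline livers and 4.83, 9.27 and 9.52 in the IDA saline livers, so that KO saline livers 1 and 2 and IDA saline liver 1 had none detected, and Xist was detected in those 3 and weakly in KO saline liver 3. The study's methods call the KO mice male, and whether these livers came from females or were exchanged cannot be told apart here. The LPS groups were alike in this respect. The counts, over all rows, of KO to IDA ratios that differed between LPS and saline are given below with and without those 3 livers. Other saline counts, shares, medians and single ratios include them unless stated.

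Tmprss6 itself, measured by a probe whose place relative to the deleted part is not given in the sources used here, had log2 intensities of 7.72, 7.82 and 7.90 in the KO livers, against 9.61, 10.46 and 9.43 in the IDA livers (log2 ratio -2.02 ± 0.27, adjusted p = 0.000377), where ± is the standard error of the limma fit and the adjusted p is that of limma over all rows tested. It stayed detected on all 6 arrays, and the groups did not overlap. Its ratio in the saline livers was -2.38. Tomm22, which encodes a receptor subunit of the mitochondrial protein import complex and lies 21 tested genes from Tmprss6 on chromosome 15, was lower, at 7.46, 7.75 and 7.48 in the KO livers, against 10.41, 11.35 and 10.31 in the IDA livers (log2 ratio -3.13 ± 0.30, adjusted p = 6.35e-05), and its ratio in saline was -3.32. Of the 60 tested genes nearest Tmprss6, 30 on each side, 4 met the call used below, which 7.07% of all rows met. Cbx7 was higher, with a log2 ratio of 1.41, and Apol10b (-1.26), Cdc42ep1 (-2.25) and Tomm22 were lower. On chromosome 15 as a whole 32 of 364 tested genes were called (8.79%), beside 4.63% on chromosome 8 and 8.84% on chromosome 6.

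After the brightest detected probe of each gene was kept, 11104 rows were tested, 8974 of them named genes. A row was called where limma's adjusted p was under 0.05 and the log2 ratio passed 1 in either direction. That held for 785 rows (7.07% of those tested), 443 of them higher (3.99%) and 342 lower (3.08%) in the KO livers, and the 6 livers fell into groups without overlap for 781 of the 785, against 47% of all rows. By the adjusted p alone 1842 rows were higher (16.6%) and 1597 lower (14.4%), and these 2 shares are the background for every gene list below, in which a gene "passed" at an adjusted p under 0.05. The count of calls depended on the treatment of dim probes: 159 of the 443 higher rows were undetected in all 3 IDA livers and 65 of the 342 lower rows in all 3 KO livers, and with the authors' own normalized intensities 168 were higher and 180 lower. The median log2 ratio of all rows was 0.02.

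**Figure D1:**
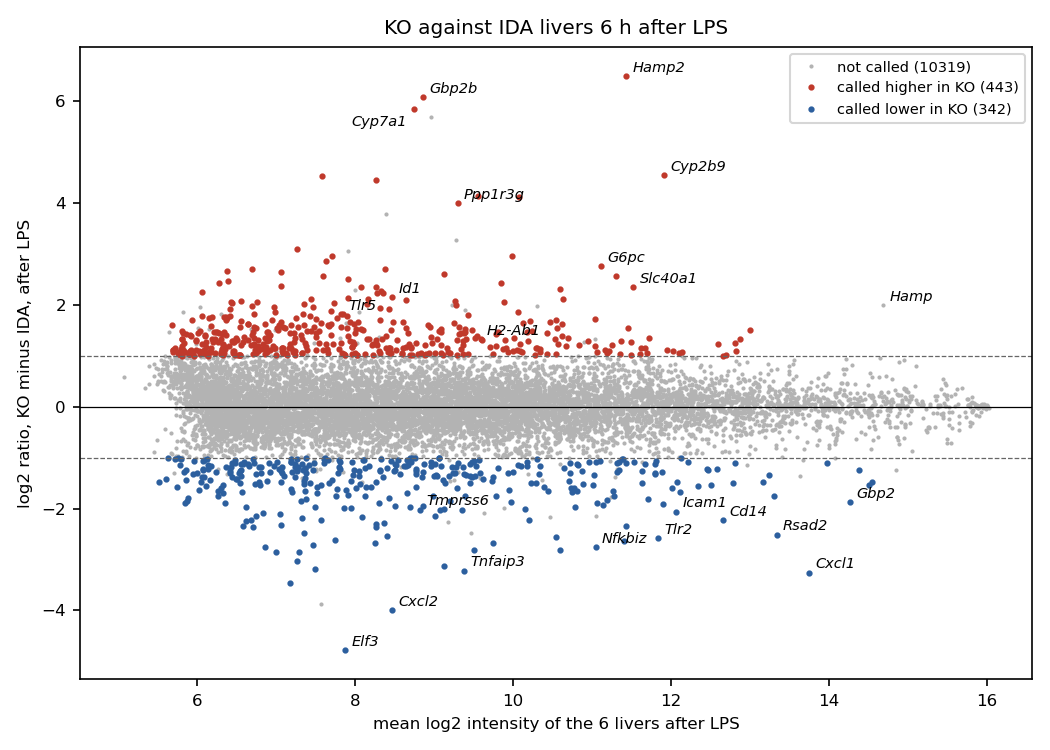
Log2 ratio of KO over IDA livers after LPS (vertical axis) against the mean log2 intensity of the 6 LPS arrays (horizontal axis) for 11104 rows, with the 443 rows called higher, the 342 called lower and leading genes named. Hamp2 and Ppp1r3g stand at log2 ratios of 6.50 and 4.00 and Cxcl2 at -4.00. Gbp2b and Elf3, each undetected in 1 group, are plotted at their fitted values, although their measured bounds are at least 39.4-fold higher and at least 15.9-fold lower.

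The gene lists divided by function. NF-kB subunits and inhibitors, interferon-induced genes and endoplasmic reticulum stress genes were lower in the KO livers for most of their measured members, and fatty acid oxidation, glucose output, transporter, MHC class II, macrophage, endothelial and extracellular matrix genes were higher more often than the background. Several lists stayed near or under the background shares: 2 of 45 respiratory chain subunits passed higher, 1 of 12 urea cycle genes lower, and 2 of 15 growth hormone axis genes in each direction. The plot of gene lists shows these shares.

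**Figure D2:**
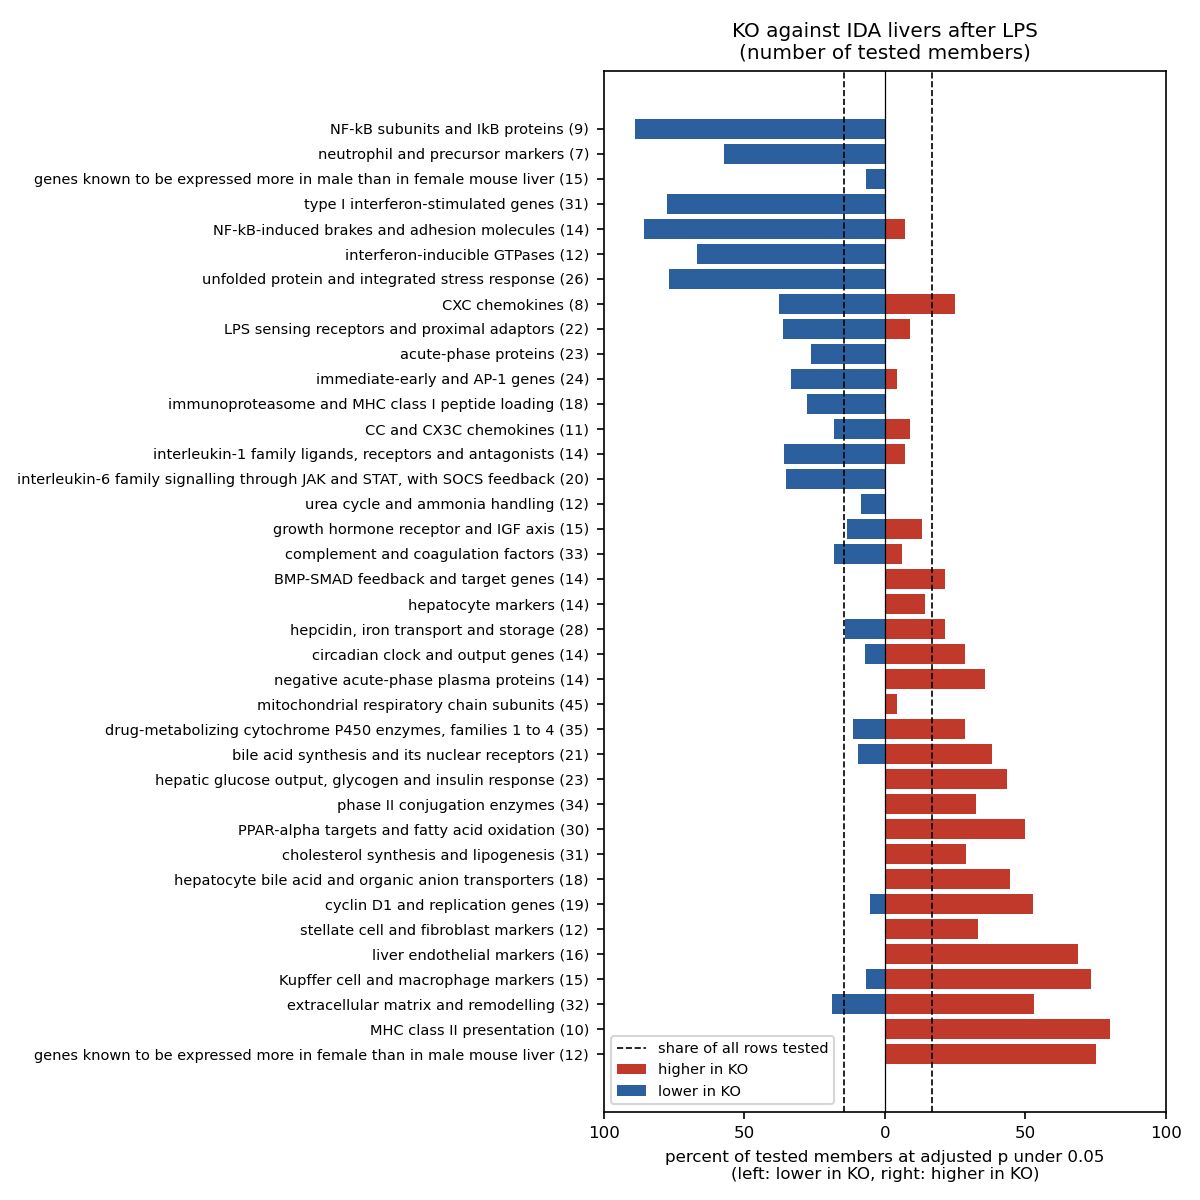
Percent of each gene list's tested members that passed limma's adjusted p of 0.05, lower in KO livers to the left and higher to the right, for lists with the number of tested members in brackets. Dashed lines mark the shares of all rows, 14.4% lower and 16.6% higher. The NF-kB subunits (8 of 9 lower) and the MHC class II genes (8 of 10 higher) have the highest shares in their directions.

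Classical NF-kB targets of LPS signalling were lower in the KO livers. Cxcl1, a neutrophil-attracting chemokine, had log2 intensities of 12.11, 12.57 and 11.66 in the KO livers, against 15.24, 15.53 and 15.35 in the IDA livers (log2 ratio -3.26 ± 0.56, adjusted p = 0.00164), and its neighbour Cxcl2 7.30, 6.56 and 5.54 in the KO livers, against 10.22, 11.13 and 10.05 in the IDA livers (log2 ratio -4.00 ± 0.38, adjusted p = 6.29e-05). Both genes separated the groups by more than 2 log2 units in every pair of livers. The Cxcl2 value of KO liver 3 lay under the array's lowest detected log2 intensity, 6.41, and the log2 ratio of Cxcl2 was -2.92 under the alternative processing that gave the smallest change. Tnfaip3, which encodes the ubiquitin-editing enzyme A20 that shuts NF-kB signalling off, stood at 7.57, 8.12 and 7.60 in the KO livers, against 10.71, 11.36 and 10.88 in the IDA livers (log2 ratio -3.22 ± 0.27, adjusted p = 3.32e-05). The 250 bases before the RefSeq start site of these 3 genes are printed because each holds an NF-kB motif, searched as GGANNTTCC on both strands and set in capitals (GRCm38.p6, 5′ to 3′ on the gene's strand), for Cxcl1 at chr5:90890995-90891244, plus strand, 70 bases before the start, for Cxcl2 at chr5:90903649-90903898, plus strand, 96 bases before it, and for Tnfaip3 at chr10:19015411-19015660, minus strand, 24 bases before it.
Cxcl1: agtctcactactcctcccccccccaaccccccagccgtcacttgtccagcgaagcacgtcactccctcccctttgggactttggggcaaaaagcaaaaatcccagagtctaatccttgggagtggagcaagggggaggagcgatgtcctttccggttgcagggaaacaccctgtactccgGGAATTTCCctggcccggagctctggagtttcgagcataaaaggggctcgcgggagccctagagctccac
Cxcl2: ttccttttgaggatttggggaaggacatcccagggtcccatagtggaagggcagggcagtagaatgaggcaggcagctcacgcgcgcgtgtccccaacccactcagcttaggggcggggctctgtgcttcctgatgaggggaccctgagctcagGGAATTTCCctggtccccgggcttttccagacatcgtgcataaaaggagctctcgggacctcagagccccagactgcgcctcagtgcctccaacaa
Tnfaip3: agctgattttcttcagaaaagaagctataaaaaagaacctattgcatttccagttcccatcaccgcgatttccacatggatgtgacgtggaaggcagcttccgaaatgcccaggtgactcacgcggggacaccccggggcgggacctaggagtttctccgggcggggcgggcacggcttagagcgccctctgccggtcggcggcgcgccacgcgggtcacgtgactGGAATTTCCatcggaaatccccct
Such a match was in 11.4% of the 219 promoters of genes called lower and in 3.46% of the 289 of genes called higher. It was in 4.03% of the 7326 of tested genes and in 3.56% of all 27025 promoters of this length. A match is a description of letters and not a measured binding site.

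All 9 tested NF-kB subunits and IkB proteins had groups that did not overlap, against 47% of all rows. Of the 9, 8 passed lower (background 14.4%), and the list had a median log2 ratio of -1.62, or -1.33 with undetected genes at their bound. Rela, the activating subunit p65, had 11.14, 11.31 and 11.28 in the KO livers, against 12.28, 12.50 and 12.29 in the IDA livers (log2 ratio -1.12 ± 0.13, adjusted p = 0.000146). Relb, of the non-canonical branch, had 6.07, 6.48 and 6.74 in the KO livers, against 8.97, 9.36 and 8.83 in the IDA livers (log2 ratio -2.62 ± 0.20, adjusted p = 1.87e-05), and its partner Nfkb2 was undetected on every KO array and at least 2.51-fold lower there (adjusted p = 9.75e-05). Among the inhibitors, which NF-kB itself induces, Nfkbia (IkB-alpha) fell with a log2 ratio of -1.27 (adjusted p = 0.00103), Nfkbie with -1.62 (adjusted p = 0.000633) and Bcl3 with -2.02 (adjusted p = 1.43e-05). Nfkbiz, an atypical IkB protein that NF-kB and interleukin-1 induce, stood at 9.77, 9.65 and 9.58 in the KO livers, against 12.01, 12.75 and 12.50 in the IDA livers (log2 ratio -2.75 ± 0.20, adjusted p = 1.13e-05). With only genes detected on all 6 arrays, 5 of the list passed lower. The log2 ratios of the 8 that passed ran from -0.80 for Nfkbib to -2.75 for Nfkbiz.

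Of 14 further genes that NF-kB induces to end the response or to recruit leukocytes, 12 passed lower and 1 higher, with a median of -1.07. Zc3h12a, an endonuclease that destroys cytokine mRNAs, had 6.89, 6.99 and 6.87 in the KO livers, against 9.46, 9.91 and 9.40 in the IDA livers (log2 ratio -2.68 ± 0.16, adjusted p = 6.28e-06). Icam1, the adhesion molecule that holds leukocytes on endothelium, had 10.94, 11.30 and 10.88 in the KO livers, against 12.93, 13.27 and 13.09 in the IDA livers (log2 ratio -2.06 ± 0.14, adjusted p = 8.07e-06). Tnfaip2 (log2 ratio -2.22), Irak3, which restrains IRAK signalling (-1.27), and Tnip1, a partner of A20 (-0.86), fell too. The single member higher was Vcam1, at 0.62, and its call was lost without IDA liver 1, IDA liver 3 or KO liver 2. IDA liver 2 was the highest of its group for 7 of the 9 NF-kB subunits and for 11 of these 14 genes.

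**Figure D3:**
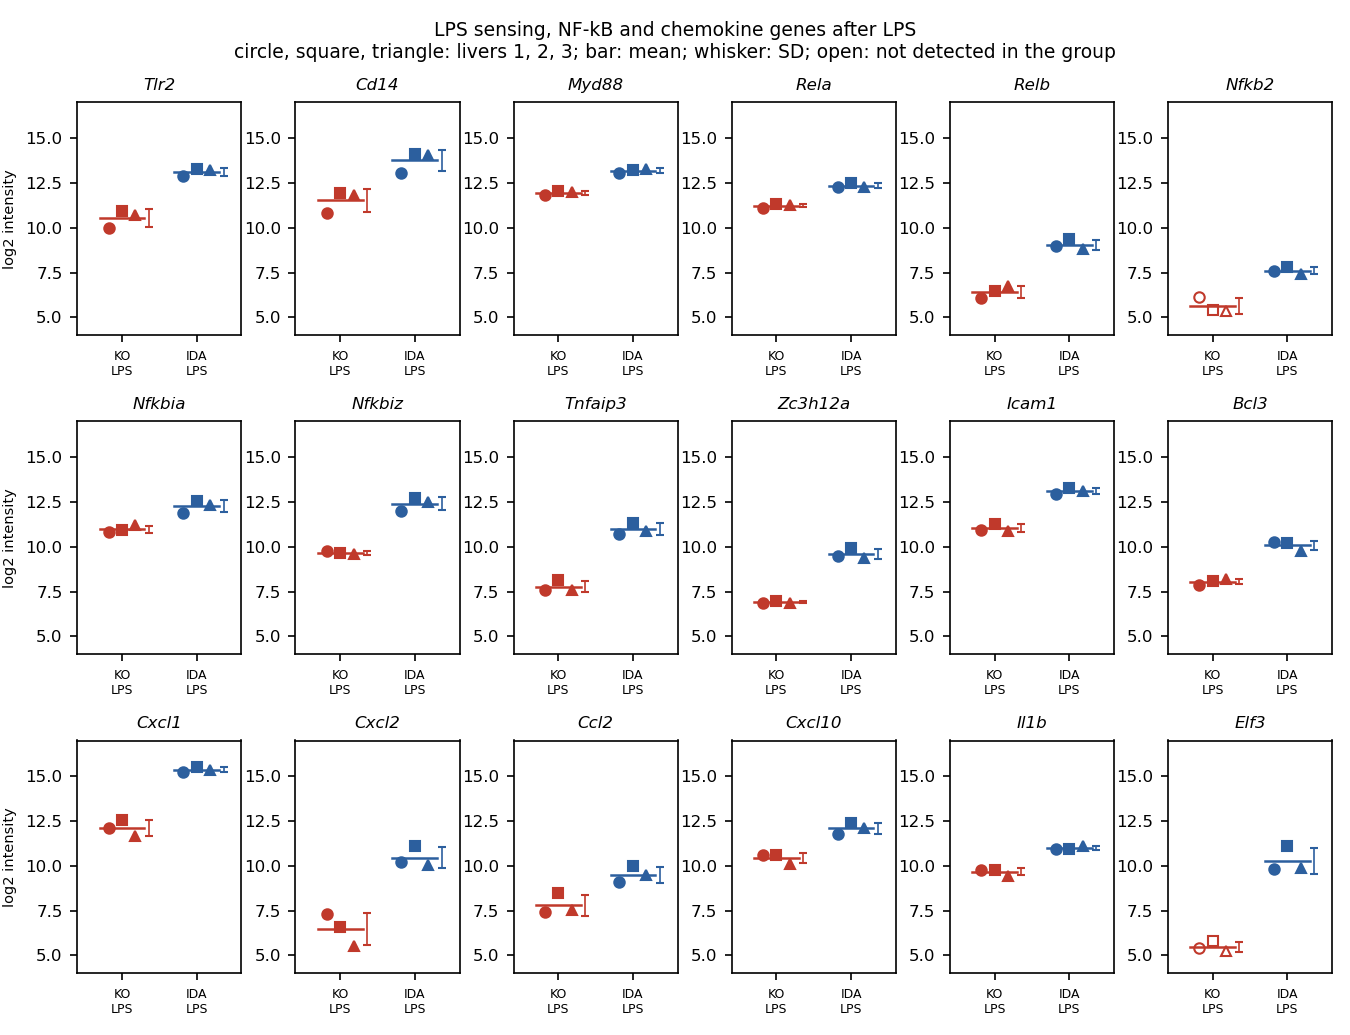
Log2 intensities of 18 genes of LPS sensing, NF-kB, chemokines and Elf3 in the 3 KO and the 3 IDA livers after LPS, 1 point per liver with the mean (bar) and SD (whisker). In all 18 panels the KO livers lie below the IDA livers, with log2 ratios of -1.12 for Rela and -4.00 for Cxcl2. The Cxcl2 value of KO liver 3 lies under the lowest detected intensity of that array.

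The receptors did not move together. Tlr4, the LPS receptor, and Ly96, which encodes MD-2, missed the threshold, at 0.33 (adjusted p = 0.172) and -0.27 (adjusted p = 0.187). Cd14 had 10.81, 11.95 and 11.86 in the KO livers, against 13.09, 14.12 and 14.09 in the IDA livers (log2 ratio -2.23 ± 0.38, adjusted p = 0.00154), and Tlr2, the receptor for bacterial lipoproteins, 9.98, 10.93 and 10.70 in the KO livers, against 12.89, 13.26 and 13.21 in the IDA livers (log2 ratio -2.59 ± 0.26, adjusted p = 8.85e-05). KO liver 1 was the lowest for both of these genes. Myd88, the shared adaptor, showed little spread, with 11.84, 12.03 and 12.02 in the KO livers, against 13.07, 13.21 and 13.31 in the IDA livers (log2 ratio -1.23 ± 0.11, adjusted p = 3.98e-05). In the opposite direction Tlr5, the flagellin receptor, had 8.92, 8.62 and 8.71 in the KO livers, against 6.92, 7.08 and 6.80 in the IDA livers (log2 ratio 1.82 ± 0.15, adjusted p = 2.19e-05), and Tlr1, undetected in the IDA livers, was at least 1.06-fold higher (adjusted p = 0.00637). Over the list of 22 sensing genes 8 passed lower and 2 higher.

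A minority of the chemokine and interleukin-1 genes passed. Of 8 CXC chemokines 3 passed lower and 2 higher (1 higher without IDA liver 3 or KO liver 1), the lower ones being Cxcl1, Cxcl2 and the interferon-induced Cxcl10 (log2 ratio -1.66, adjusted p = 0.00406), while Cxcl12, a constitutive chemokine of stromal cells, was higher at 13.30, 13.21 and 13.30 in the KO livers, against 12.64, 12.39 and 12.29 in the IDA livers (log2 ratio 0.83 ± 0.11, adjusted p = 0.000273). Of 11 CC and CX3C chemokines 2 passed lower and 1 higher, shares near the backgrounds of 14.4% and 16.6%, the lower ones being the monocyte attractant Ccl2 (log2 ratio -1.70, adjusted p = 0.000897) and Ccl3 (log2 ratio -1.26, adjusted p = 0.00153). Of 14 interleukin-1 family genes 5 passed lower and 1 higher. Il1b, interleukin-1 beta, had 9.79, 9.76 and 9.46 in the KO livers, against 10.92, 10.93 and 11.11 in the IDA livers (log2 ratio -1.32 ± 0.34, adjusted p = 0.0129). Its antagonists fell as well, the receptor antagonist Il1rn with -1.90 (adjusted p = 0.0017), and the decoy receptor Il1r2, undetected in the KO livers, by at least 2.87-fold (adjusted p = 2.00e-05). The signalling receptor Il1r1 was lower after LPS (log2 ratio -1.98, adjusted p = 0.000184) and after saline (-1.24).

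Elf3, an epithelial ETS-family transcription factor, had 5.39, 5.78 and 5.27 in the KO livers, against 9.81, 11.10 and 9.88 in the IDA livers. It was undetected in all KO livers and at least 15.9-fold lower there (adjusted p = 6.28e-06). Other large decreases were in Cish, a feedback inhibitor of cytokine receptors that signal through STAT5, with 8.70, 9.38 and 9.46 in the KO livers, against 11.83, 12.27 and 11.88 in the IDA livers (log2 ratio -2.81 ± 0.28, adjusted p = 7.85e-05), in Pde4b, a phosphodiesterase that degrades cyclic AMP (log2 ratio -2.67, adjusted p = 9.75e-05), in the autophagy-related gene Atg16l2 (log2 ratio -2.82, adjusted p = 2.44e-05), and in Pglyrp1, a bactericidal protein of neutrophil granules (at least 4.46-fold lower, adjusted p = 2.73e-05). Cox6b2, an isoform of cytochrome c oxidase subunit 6B best known from testis, was undetected in the KO livers and stood at 8.85, 8.61 and 9.26 in the IDA livers (adjusted p = 0.0295). Its call was lost without any 1 of the 6 LPS livers, and its saline values, at 6.91, 9.03 and 5.71 in the KO livers and 9.81, 5.52 and 5.08 in the IDA livers, overlapped.

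Interferon-stimulated genes were lower in the KO livers, with more spread between livers. Of 31 genes induced by type I interferon 24 passed lower and 0 higher, with a median log2 ratio of -1.07, or -0.92 with undetected genes at their bound. Groups did not overlap for 25 of the 31, against 47% of all rows. Rsad2, which encodes the antiviral enzyme viperin, had 10.83, 13.12 and 12.30 in the KO livers, against 14.25, 14.61 and 14.92 in the IDA livers (log2 ratio -2.51 ± 0.44, adjusted p = 0.0017). Ifit2, an inhibitor of viral translation, had 8.38, 11.30 and 10.59 in the KO livers, against 12.74, 12.48 and 12.94 in the IDA livers (log2 ratio -2.63 ± 0.58, adjusted p = 0.00599), and Isg15, a ubiquitin-like modifier, 12.68, 14.17 and 14.36 in the KO livers, against 15.12, 15.34 and 15.36 in the IDA livers (log2 ratio -1.54 ± 0.36, adjusted p = 0.0085). KO liver 1 was the lowest of the KO livers for 25 of the 31 genes. Leaving out 1 liver at a time gave from 17 genes passing lower, without IDA liver 3, to 25, without KO liver 3. Mx1, Cmpk2, Usp18 and Samhd1, an antiviral GTPase, a mitochondrial nucleotide kinase, the ISG15 protease and a dNTP hydrolase, had log2 ratios of -2.72, -1.81, -1.47 and -1.96, and each passed with non-overlapping groups.

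Of 12 interferon-inducible GTPases, which attack the vacuoles of intracellular microbes, 8 passed lower and 0 higher, and 5 did so without IDA liver 3. Gbp2 had 12.55, 13.75 and 13.67 in the KO livers, against 15.19, 15.08 and 15.34 in the IDA livers (log2 ratio -1.88 ± 0.25, adjusted p = 0.000385), Gbp5 6.80, 6.90 and 7.16 in the KO livers, against 8.61, 8.91 and 9.29 in the IDA livers (log2 ratio -1.98 ± 0.16, adjusted p = 2.14e-05) and Tgtp1 6.35, 7.46 and 7.39 in the KO livers, against 8.37, 8.93 and 8.82 in the IDA livers (log2 ratio -1.64 ± 0.25, adjusted p = 0.000877). Another GTPase gene, Gbp2b, known as guanylate-binding protein 1 in mouse and not among the 12 counted, went the other way, with 10.88, 12.22 and 12.61 in the KO livers, against 5.35, 5.70 and 6.41 in the IDA livers. It was undetected in every IDA liver after LPS, and the KO livers were at least 39.4-fold higher (adjusted p = 8.07e-06). In the saline livers it was detected in all 6, at 7.17, 7.19 and 7.01 in the KO livers and 7.44, 7.28 and 6.57 in the IDA livers. Gbp2b and Gbp2 are closely related copies lying near each other on chromosome 3, and cross-hybridisation between them was not tested. The bases before both starts, and before that of Isg15, are shown because the genes moved in opposite directions while all 3 hold the interferon response motif, searched as GAAANNGAA on both strands and set in capitals (GRCm38.p6), for Gbp2b at chr3:142594597-142594846, plus strand, 136 bases before the start, for Gbp2 at chr3:142620413-142620662, plus strand, 58 bases before it, and for Isg15 at chr4:156200819-156201068, minus strand, 78, 72 and 66 bases before it, where the capitals also mark an NF-kB match 41 bases before the start. In Gbp2b the capitals also mark a C/EBP match (TTGCNNAA) 111 bases before the start.
Gbp2b: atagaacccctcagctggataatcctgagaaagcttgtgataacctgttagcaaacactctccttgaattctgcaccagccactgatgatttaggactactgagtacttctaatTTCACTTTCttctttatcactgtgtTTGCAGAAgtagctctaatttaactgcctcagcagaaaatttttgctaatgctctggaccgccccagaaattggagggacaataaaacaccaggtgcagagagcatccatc
Gbp2: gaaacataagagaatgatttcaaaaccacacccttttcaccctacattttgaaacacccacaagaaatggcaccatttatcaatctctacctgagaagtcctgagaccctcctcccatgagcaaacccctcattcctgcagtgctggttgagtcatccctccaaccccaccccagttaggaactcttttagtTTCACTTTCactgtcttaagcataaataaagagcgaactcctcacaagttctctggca
Isg15: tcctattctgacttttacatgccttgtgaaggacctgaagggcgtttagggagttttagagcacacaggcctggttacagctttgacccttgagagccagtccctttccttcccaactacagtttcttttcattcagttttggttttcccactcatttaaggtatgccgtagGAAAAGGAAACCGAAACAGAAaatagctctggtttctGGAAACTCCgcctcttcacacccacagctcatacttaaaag
The interferon motif was in 8 of the 9 GTPase promoters found (88.9%) and in 8 of 22 promoters of the type I interferon list (36.4%). It was in 11% of the promoters of genes called lower, in 7.27% of those called higher, in 6.5% of those of tested genes and in 7.16% of all promoters.

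**Figure D4:**
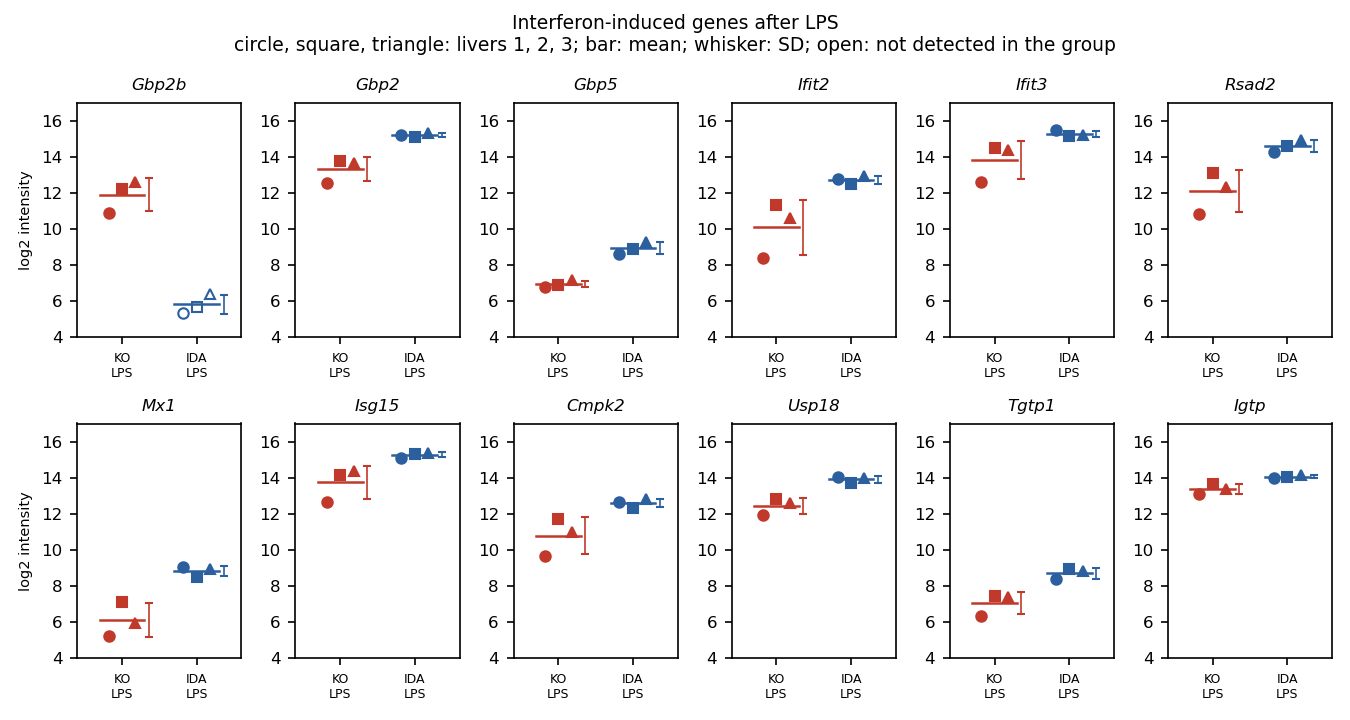
Log2 intensities of 12 interferon-induced genes in the 3 KO and the 3 IDA livers after LPS, with the mean (bar), SD (whisker) and open symbols where a gene was not detected in a group. Gbp2b alone of the 12 is higher in the KO livers, and KO liver 1 (circle) is the lowest KO liver in all 12 panels.

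Downstream of interleukin-6 the differences were smaller. Of 20 genes in interleukin-6, JAK-STAT and SOCS signalling 0 passed higher and 7 lower, among them the receptor chains Il6ra (log2 ratio -0.78, adjusted p = 0.00223) and Osmr (log2 ratio -0.77, adjusted p = 0.00461) and the kinase Pim1, a STAT target (undetected in the KO livers, at least 1.82-fold lower, adjusted p = 0.000569). The STAT3 feedback inhibitor Socs3 had 9.84, 10.11 and 9.97 in the KO livers, against 10.97, 11.86 and 11.47 in the IDA livers (log2 ratio -1.46 ± 0.41, adjusted p = 0.0185), and its call was lost without IDA liver 2 (0.0674), IDA liver 3 (0.0529) or KO liver 1 (0.0565), with the adjusted p in brackets. Of 23 acute-phase proteins 6 passed lower and 0 higher, against 3 without KO liver 1, and Lbp, the LPS-binding protein, had 12.92, 13.41 and 13.49 in the KO livers, against 13.96, 14.17 and 14.17 in the IDA livers (log2 ratio -0.83 ± 0.17, adjusted p = 0.00404). Saa1 and Hp, serum amyloid A and haptoglobin, had levels close to 16 in every liver, near the top of the measured range. Mt2, a metallothionein, fell with a log2 ratio of -1.5 (adjusted p = 0.00674). C9, of the terminal complement complex, was lower after LPS (log2 ratio -1.54, adjusted p = 0.0053) and after saline (-2.17). In its list 6 of 33 complement and coagulation genes passed lower (18.2%), near the background of 14.4%, and 3 without IDA liver 1 or KO liver 1.

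Genes of the unfolded protein response, by which cells adjust their endoplasmic reticulum to secretory load, were lower: 20 of 26 passed lower and 0 higher, with a median of -0.62. Hyou1, a chaperone, had 7.51, 7.64 and 7.43 in the KO livers, against 9.26, 9.70 and 9.48 in the IDA livers (log2 ratio -1.95 ± 0.27, adjusted p = 0.00049), and Creld2, a secreted target of ATF6, 12.06, 12.85 and 12.36 in the KO livers, against 13.81, 14.38 and 14.32 in the IDA livers (log2 ratio -1.75 ± 0.20, adjusted p = 0.000159). Asns, asparagine synthetase, the classical target of ATF4, had 7.99, 8.37 and 7.44 in the KO livers, against 10.12, 10.03 and 10.06 in the IDA livers (log2 ratio -2.14 ± 0.38, adjusted p = 0.00196). Xbp1 (-0.75), the chaperone Hspa5 (-0.88), calreticulin Calr (-0.91) and the ubiquitin ligase Syvn1 (-1.24) each passed with smaller ratios.

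Some immediate-early and stress genes had opposite signs with and without LPS. Ier3, an NF-kB-induced survival gene, had 10.77, 10.02 and 9.96 in the KO livers, against 12.07, 13.21 and 12.53 in the IDA livers after LPS (log2 ratio -2.35 ± 0.30, adjusted p = 0.000291) and was higher in KO livers after saline, by 1.53. Ddit3, the stress factor CHOP, likewise had 8.54, 8.93 and 8.63 in the KO livers, against 10.07, 10.33 and 10.20 in the IDA livers (log2 ratio -1.5 ± 0.19, adjusted p = 0.000284), and 0.95 in saline, and the kinase adaptor Irak2 had -1.03 after LPS and 1.25 in saline. Of 24 immediate-early genes 8 passed lower and 1 higher after LPS, with 4 lower without IDA liver 2 or KO liver 2, 5 without KO liver 3 and 5 with median scaling of the arrays. The median of the list was -0.30 after LPS and 1.78 in saline, and KO liver 1 was the highest KO liver for 20 of the 24 genes, as IDA liver 2 was among the IDA livers. Jun and Fos, subunits of AP-1, missed the threshold after LPS, at -0.31 (adjusted p = 0.471) and 1.91 (adjusted p = 0.108). Fos passed in the fit of only the 6 LPS arrays (adjusted p = 0.0338) and without KO saline liver 2 (adjusted p = 0.0312). The count of immediate-early genes that passed higher was 5 with only the 6 LPS arrays or only the livers with Eif2s3y, 3 without KO saline liver 2, 2 without IDA saline liver 2 and 0 without IDA liver 3 or KO liver 1.

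Of the 2 hepcidin genes Hamp2 passed higher in the KO livers after LPS, and Hamp had groups that did not overlap. Hamp, the functional hepcidin gene, had 15.64, 15.59 and 15.81 in the KO livers, against 13.82, 13.77 and 13.49 in the IDA livers, beside values of 15.75, 15.59 and 15.76 in KO and 4.94, 7.88 and 8.91 in IDA saline livers. Its log2 ratio of 1.99 ± 0.71 missed the threshold in the fit of all 12 arrays (adjusted p = 0.0529), which shares 1 spread with the scattered IDA saline livers, and passed with the 6 LPS arrays alone (adjusted p = 0.00037) and without IDA saline liver 1 (adjusted p = 0.000175). In IDA saline liver 1 the value of 4.94 lay under the array's lowest detected log2 intensity, 6.64. The KO values of Hamp lay near the top of the measured range. Hamp2, the second hepcidin gene of mice, whose peptide has not been found to lower iron, had 14.84, 15.06 and 14.14 in the KO livers, against 8.20, 7.93 and 8.41 in the IDA livers (log2 ratio 6.50 ± 0.40, adjusted p = 6.28e-06), the largest ratio of all named genes. In saline livers it stood at 15.58, 15.65 and 15.50 in KO and 9.96, 10.56 and 11.92 in IDA mice. In the IDA mice all 3 LPS livers thus lay above all 3 saline livers for Hamp and below them for Hamp2, and that difference was not tested. The 2 genes are near-identical copies on chromosome 7, so their probes may share signal. The 250 bases before each start are printed (GRCm38.p6) with the BMP response motif GGCGCC and the STAT motif TTCNNNGAA in capitals, Hamp at chr7:30944030-30944279, minus strand, with a BMP match 109 and a STAT match 97 bases before the start, and Hamp2 at chr7:30924182-30924431, minus strand, with a STAT match 94 bases before it and no match to these BMP letters.
Hamp: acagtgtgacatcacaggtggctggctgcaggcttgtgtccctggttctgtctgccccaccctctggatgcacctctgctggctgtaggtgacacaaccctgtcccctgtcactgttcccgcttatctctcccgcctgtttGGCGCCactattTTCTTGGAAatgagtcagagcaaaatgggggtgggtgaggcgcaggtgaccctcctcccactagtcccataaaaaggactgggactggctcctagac
Hamp2: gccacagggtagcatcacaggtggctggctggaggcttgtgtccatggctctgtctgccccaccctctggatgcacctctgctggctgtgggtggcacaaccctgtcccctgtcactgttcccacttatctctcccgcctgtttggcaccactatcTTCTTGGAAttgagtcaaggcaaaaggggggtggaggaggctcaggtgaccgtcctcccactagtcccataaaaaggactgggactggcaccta
The BMP letters were in 9.54% and the STAT letters in 7.18% of all promoters of this length, and in 15.9% and 6.22% of those of tested genes.

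Some BMP targets were higher in the KO livers too. Id1, a SMAD target, had 9.54, 9.34 and 9.76 in the KO livers, against 7.33, 7.26 and 7.58 in the IDA livers (log2 ratio 2.16 ± 0.33, adjusted p = 0.000881), and 2.66 in saline. Atoh8, another BMP-responsive transcription factor, was undetected in the IDA livers and at least 1.37-fold higher (adjusted p = 0.00144). Of 14 BMP-SMAD genes 3 passed higher and 0 lower, near the background of 16.6%, and Smad6 did not pass, with 0.22 (adjusted p = 0.399). Slc40a1, which encodes ferroportin, had 12.38, 12.91 and 12.78 in the KO livers, against 10.78, 9.90 and 10.38 in the IDA livers (log2 ratio 2.34 ± 0.26, adjusted p = 0.000122), against 0.42 in saline. The ferritin light chain Ftl1 was higher (log2 ratio 0.95, adjusted p = 0.00144), and the divalent metal transporter Slc11a2 (log2 ratio -1.24, adjusted p = 0.00153), the iron and zinc importer Slc39a14 (log2 ratio -0.74, adjusted p = 0.0031) and the mitochondrial iron importer Slc25a28 (log2 ratio -0.70, adjusted p = 0.00132) were lower. Transferrin receptor Tfrc did not pass, with 11.32, 10.57 and 10.41 in the KO livers, against 11.75, 11.55 and 11.72 in the IDA livers (log2 ratio -0.91 ± 0.40, adjusted p = 0.107), but passed in the fit of only the 6 LPS arrays (adjusted p = 0.0231) and without KO saline liver 1 (adjusted p = 0.00903). In all, 6 of 28 iron genes passed higher (21.4%) and 4 lower (14.3%), near the backgrounds of 16.6% and 14.4%.

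**Figure D5:**
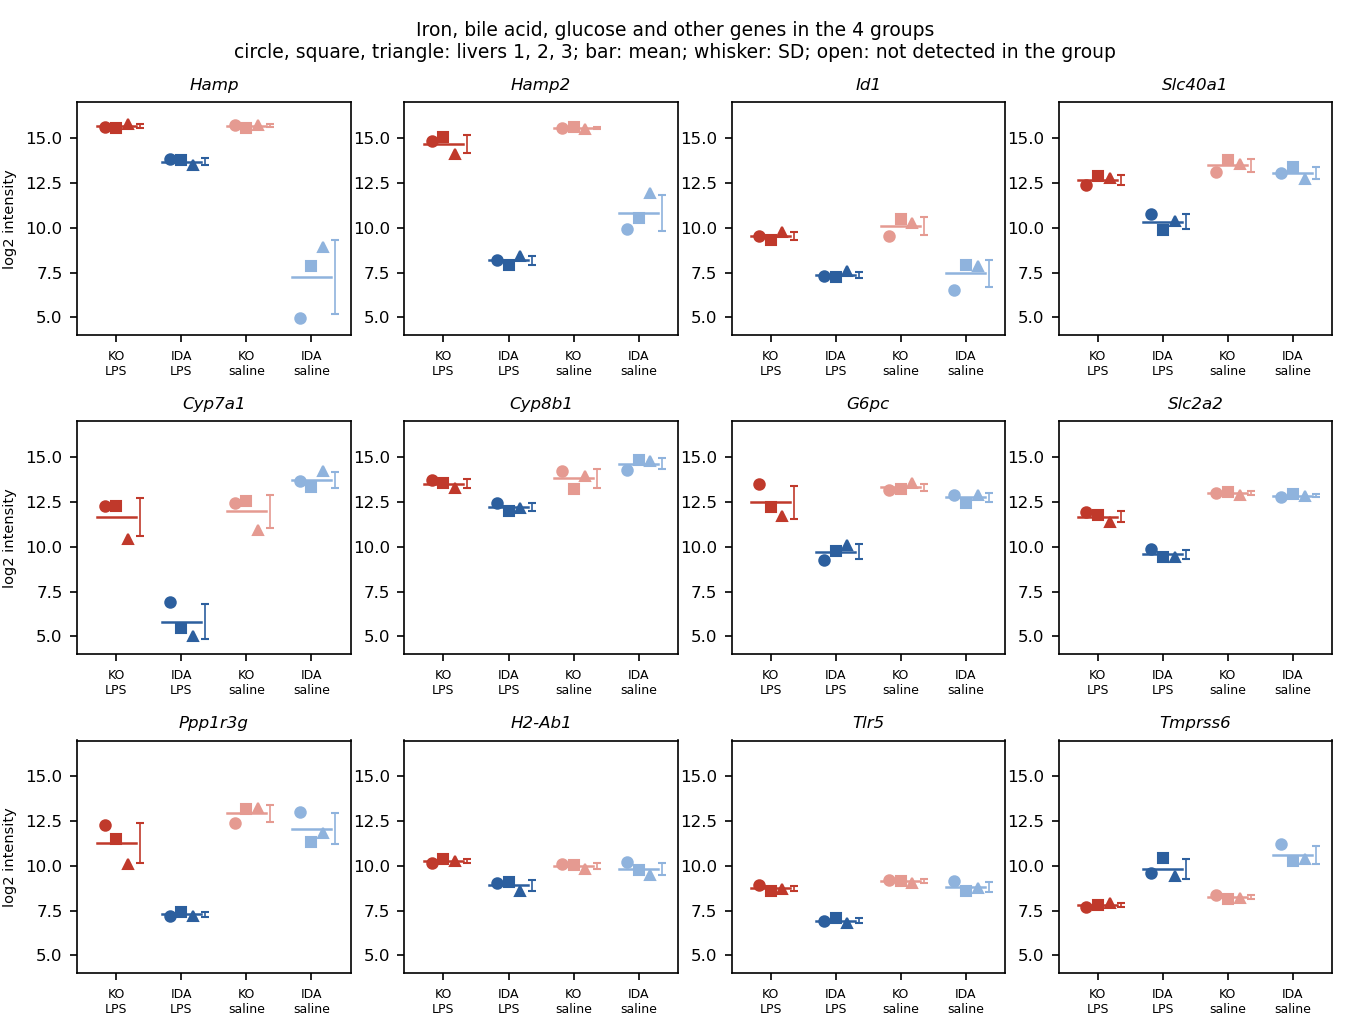
Log2 intensities of 12 genes in the 4 groups of 3 livers, KO and IDA after LPS and KO and IDA after saline, with the mean (bar) and SD (whisker). Cyp7a1, Cyp8b1, G6pc, Slc2a2 and Ppp1r3g separate KO from IDA livers after LPS by log2 ratios of 5.84, 1.32, 2.77, 2.11 and 4.00, and Tmprss6 is lower in KO livers with and without LPS.

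Many metabolic genes of the hepatocyte were higher in the KO livers after LPS. Cyp7a1, whose cholesterol 7-alpha-hydroxylase limits how much bile acid is made, had 12.28, 12.28 and 10.43 in the KO livers, against 6.92, 5.49 and 5.05 in the IDA livers (log2 ratio 5.84 ± 0.61, adjusted p = 9.53e-05) and was detected in only 1 of the 3 IDA livers. With undetected values set to the detection floor the log2 ratio was 4.97. In the saline livers it stood at 12.44, 12.56 and 10.94 in KO and 13.66, 13.33 and 14.21 in IDA mice, so the ranges of the KO livers with and without LPS overlapped. Cyp8b1, the sterol 12-alpha-hydroxylase, had 13.76, 13.58 and 13.26 in the KO livers, against 12.45, 12.02 and 12.15 in the IDA livers (log2 ratio 1.32 ± 0.25, adjusted p = 0.00265). The xenobiotic receptor Nr1i3 (CAR) (log2 ratio 1.65, adjusted p = 0.000251), the bile acid receptor Nr1h4 (FXR) (log2 ratio 0.73, adjusted p = 0.00656) and Klb, the co-receptor of FGF15 and FGF21 (log2 ratio 1.60, adjusted p = 5.56e-05), were higher, and 8 of 21 bile acid genes passed higher and 2 lower. Of 18 hepatocyte transporters 8 passed higher and 0 lower, among them Slc10a1, the bile acid importer NTCP, undetected in the IDA livers and at least 1.99-fold higher (adjusted p = 2.93e-05), the bile salt exporter Abcb11 (log2 ratio 0.81, adjusted p = 0.00139) and the phospholipid exporter Abcb4 (log2 ratio 0.88, adjusted p = 0.000151).

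Glucose and lipid genes had the same direction. G6pc, the last enzyme of glucose release, had 13.52, 12.22 and 11.74 in the KO livers, against 9.28, 9.77 and 10.13 in the IDA livers (log2 ratio 2.77 ± 0.37, adjusted p = 0.000377). Slc2a2, the hepatocyte glucose transporter GLUT2, had 11.95, 11.76 and 11.36 in the KO livers, against 9.88, 9.45 and 9.41 in the IDA livers (log2 ratio 2.11 ± 0.16, adjusted p = 2.00e-05), and Ppp1r3g, which targets a phosphatase to glycogen, 12.29, 11.51 and 10.09 in the KO livers, against 7.23, 7.45 and 7.20 in the IDA livers (log2 ratio 4.00 ± 0.52, adjusted p = 0.000299). For G6pc, Slc2a2 and Ppp1r3g KO liver 1 was the highest KO liver, and without it 5 rather than 10 of the 23 glucose genes passed higher, while 0 passed lower. Of 30 genes of fatty acid oxidation and PPAR-alpha 15 passed higher and 0 lower, and 9 without KO liver 1. Acot3, a peroxisomal acyl-CoA thioesterase, had 11.98, 11.46 and 10.95 in the KO livers, against 7.80, 8.67 and 9.05 in the IDA livers (log2 ratio 2.96 ± 0.40, adjusted p = 0.000374), while Ppara itself did not pass (log2 ratio 0.13, adjusted p = 0.672). G0s2, an inhibitor of the triglyceride lipase ATGL, was higher at 13.21, 12.08 and 12.46 in the KO livers, against 10.13, 10.65 and 9.29 in the IDA livers (log2 ratio 2.56 ± 0.35, adjusted p = 0.000398). Of 31 genes of cholesterol and fatty acid synthesis 9 passed higher, such as the sterol desaturase Sc5d (log2 ratio 1.57, adjusted p = 3.32e-05) and the fatty acid desaturase Fads2 (log2 ratio 1.00, adjusted p = 0.00436). Fgf21, the fasting hormone of the liver, had a log2 ratio of 1.36 (adjusted p = 0.00703).

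Among drug-metabolising enzymes more passed higher than lower, and most did not pass. Of 34 phase II enzymes 11 passed higher and 0 lower, including Ugt1a1, which conjugates bilirubin (log2 ratio 1.30, adjusted p = 0.00182), Ugt2b35 (log2 ratio 1.5, adjusted p = 0.000107) and both subunits of the glutathione-synthesising ligase, Gclc (log2 ratio 1.15, adjusted p = 0.00777) and Gclm (log2 ratio 0.69, adjusted p = 0.00759). Of 35 cytochrome P450 genes of families 1 to 4, 10 passed higher and 4 lower, with 4 higher without KO liver 1, and with 1 lower without IDA liver 3, KO liver 1 or KO liver 2 and 2 lower with median scaling. The CAR target Cyp2b10 had 11.03, 11.03 and 11.09 in the KO livers, against 8.98, 9.30 and 7.60 in the IDA livers (log2 ratio 2.42 ± 0.48, adjusted p = 0.00328), and Cyp1a2, the caffeine-oxidising enzyme, was lower (log2 ratio -1.32, adjusted p = 0.0103). Cyp2b9 had 14.53, 14.11 and 13.90 in the KO livers, against 11.16, 12.28 and 5.48 in the IDA livers (log2 ratio 4.54 ± 1.26, adjusted p = 0.0184), but its level in IDA liver 3 was far below the other IDA livers, the log2 ratio was 2.47 without that liver, and its call was lost without KO liver 1 (adjusted p = 0.0553). Cyp2b9 belongs to a list of 12 female-biased liver genes. Of these 9 passed higher and 0 lower, and 4 passed among genes detected on all 6 LPS arrays. The median log2 ratio of the 12 was 2.43 after LPS, or 1.345 with undetected genes at their bound, and 1.09 in saline. Of 15 male-biased liver genes 1 passed lower, against 4 without IDA liver 2, 3 without KO liver 3, and 2 with only the 6 LPS arrays or without IDA saline liver 1. The median log2 ratio of the 15 was -1.15 after LPS and -1.18 in saline. Both saline medians include the livers without detected Eif2s3y, 2 in the KO and 1 in the IDA saline group, so they do not compare groups alike in that gene. Eif2s3y was detected at like levels in all 6 LPS livers, as given above, and what moved the genes of these 2 lists was not tested. A1bg, another female-biased gene, had 10.93, 11.41 and 12.52 in the KO livers, against 6.74, 7.29 and 8.41 in the IDA livers (log2 ratio 4.14 ± 0.92, adjusted p = 0.00615), and Cux2, a female-specific repressor undetected in the IDA livers, was at least 2.02-fold higher (adjusted p = 0.00101).

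Markers of the other cells of the liver shifted between the groups, and in whole liver fewer cells of a type and less RNA per cell cannot be told apart. Neutrophil markers summed to linear intensities of 3552 to 8566 in the KO livers, against 14841 to 19006 in the IDA livers, and 4 of 7 passed lower, among them the chemokine receptor Cxcr2, undetected in the KO livers (at least 1.52-fold lower, adjusted p = 0.000184), and Retnlg (log2 ratio -1.90, adjusted p = 0.0044). In the KO livers 2 of the 7 neutrophil markers were undetected on every array, in the IDA livers 0. Kupffer cell and macrophage markers summed to 13528 to 20759 in the KO livers and 7045 to 9588 in the IDA livers, with 11 of 15 passing higher and 1 lower. That count fell to 4 without KO liver 2, 5 without KO liver 3, 6 without IDA liver 3 and 7 without IDA liver 2. The mannose receptor Mrc1, which macrophages and sinusoidal endothelium share, had 9.49, 9.68 and 9.06 in the KO livers, against 7.93, 7.45 and 8.24 in the IDA livers (log2 ratio 1.54 ± 0.23, adjusted p = 0.000728), and Vsig4, a complement receptor of Kupffer cells, 9.0, 9.70 and 9.37 in the KO livers, against 8.39, 7.87 and 8.65 in the IDA livers (log2 ratio 1.05 ± 0.21, adjusted p = 0.00381). The neutrophil sums were lower in the KO livers, as were most NF-kB and interferon genes and the chemokines Cxcl1 and Cxcl2, and the macrophage sums were higher. The part of either cell type in those values was not tested.

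Endothelial markers were higher as well, with sums of 10679 to 11859 in the KO livers and 5958 to 6698 in the IDA livers, and 11 of 16 passed higher (7 without KO liver 1 or KO liver 2). Clec4g, a lectin of liver sinusoidal endothelium, had 11.93, 11.94 and 11.83 in the KO livers, against 10.16, 9.74 and 10.63 in the IDA livers (log2 ratio 1.72 ± 0.20, adjusted p = 0.000172). The endothelial phosphatase Ptprb had 9.34, 9.13 and 9.05 in the KO livers, against 7.40, 7.85 and 7.14 in the IDA livers (log2 ratio 1.71 ± 0.17, adjusted p = 7.85e-05), and coagulation factor F8, made by these cells, was higher (log2 ratio 1.15, adjusted p = 0.000433). Fcgr2b, the Fc receptor of the sinusoid, had 9.27, 9.58 and 9.0 in the KO livers, against 7.62, 6.48 and 7.90 in the IDA livers (log2 ratio 1.95 ± 0.31, adjusted p = 0.000991). Thbd, thrombomodulin, went the other way, undetected in the KO livers and at least 2.19-fold lower (adjusted p = 0.00196). Erythroid markers summed to 23931 to 30963 in the KO livers, against 10068 to 18999 in the IDA livers, with 3 of 6 passing higher and 1 lower.

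MHC class II genes, which present antigen to helper T cells, were higher although interferon-induced genes were lower. Of 10 genes 8 passed higher and 0 lower, with a median of 1.21, or 0.89 with undetected genes at their bound, and 3 passed among genes detected on all 6 LPS arrays. H2-Ab1 had 10.16, 10.36 and 10.25 in the KO livers, against 9.07, 9.12 and 8.58 in the IDA livers (log2 ratio 1.34 ± 0.19, adjusted p = 0.000506), H2-Eb1 9.04, 8.94 and 9.02 in the KO livers, against 7.37, 8.04 and 7.61 in the IDA livers (log2 ratio 1.33 ± 0.16, adjusted p = 0.000169) and the invariant chain Cd74 10.80, 11.04 and 10.76 in the KO livers, against 9.73, 9.78 and 9.61 in the IDA livers (log2 ratio 1.16 ± 0.17, adjusted p = 0.000556). These 3 genes were alike in size and their groups did not overlap. Of 18 genes of the immunoproteasome and MHC class I loading, which interferon-gamma also induces, 5 passed lower and 0 higher, a count that moved between 1 and 7 when single livers were left out. The macrophage sums above moved with the class II genes, and their part was not tested.

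Extracellular matrix genes were higher for 17 of 32 and lower for 6, with 7 higher among genes detected on all 6 arrays. Col6a1, a microfibril collagen, had 8.96, 8.37 and 8.01 in the KO livers, against 6.65, 7.29 and 5.52 in the IDA livers (log2 ratio 1.96 ± 0.43, adjusted p = 0.00569) and Spon2, a secreted matrix protein, 11.74, 11.33 and 11.10 in the KO livers, against 9.55, 9.81 and 9.70 in the IDA livers (log2 ratio 1.70 ± 0.31, adjusted p = 0.00223). Among the enzymes that cleave matrix, Adamts4 had 5.32, 6.76 and 6.28 in the KO livers, against 8.32, 9.38 and 8.07 in the IDA livers (log2 ratio -2.47 ± 0.38, adjusted p = 0.000864) and Mmp9, a gelatinase of neutrophils, 6.44, 6.51 and 6.85 in the KO livers, against 7.63, 7.85 and 7.13 in the IDA livers (log2 ratio -0.93 ± 0.19, adjusted p = 0.0044). Stellate cell and fibroblast markers summed to 20782 to 24691 in the KO livers and 15601 to 17565 in the IDA livers, with 4 of 12 higher. Of 19 cell cycle genes 10 passed higher and 1 lower, with 5 higher among genes detected on all 6 arrays. Ccnd1, cyclin D1, had 12.39, 11.27 and 11.60 in the KO livers, against 9.14, 9.51 and 9.68 in the IDA livers (log2 ratio 2.31 ± 0.54, adjusted p = 0.00773), and the replication helicase subunit Mcm2 7.78, 7.44 and 7.46 in the KO livers, against 6.06, 6.71 and 6.00 in the IDA livers (log2 ratio 1.30 ± 0.22, adjusted p = 0.00149). Cdkn1a, the cell cycle inhibitor p21, was lower, with 11.09, 11.35 and 11.56 in the KO livers, against 12.79, 12.66 and 13.02 in the IDA livers (log2 ratio -1.49 ± 0.32, adjusted p = 0.00495). The clock outputs Dbp (log2 ratio 1.09, adjusted p = 0.00172) and Usp2 (log2 ratio 2.07, adjusted p = 0.000115) were higher, and 4 of 14 circadian genes passed higher (2 without IDA liver 3 or KO liver 2) and 1 lower.

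Few of the called rows also passed in saline, though a larger share of them than of all rows. In the saline livers 2.11% of rows passed, 1.02% with a log2 ratio beyond 1 as well. Of the rows called after LPS, 23 of the 443 higher and 19 of the 342 lower ones also passed in saline with the same sign. Besides Hamp2, Id1, Atoh8, Tmprss6, Tomm22, Il1r1, C9 and Thbd named above, these were for example Ccnd1 (2.46 in saline), Mcm6 (1.82), Mcm2 (1.04), the epidermal growth factor receptor Egfr (-1.22 after LPS, -1.31 in saline) and coagulation factor F11 (-1.02 after LPS, -0.54 in saline). A further 9 called rows passed in saline with the opposite sign, among them Ier3, Ddit3 and Irak2. The difference between the KO to IDA ratios with and without LPS, tested by limma's interaction contrast, met the call for 290 rows upward (2.61%) and 337 downward (3.03%). By the adjusted p alone 11.5% of all rows passed it in either direction. Of the rows called after LPS, 234 higher and 215 lower ones did so with the same sign. The LPS ratio that chose these rows is part of the contrast, so the larger share among them is no separate result. For the other called rows no difference between LPS and saline was shown. Without the 3 saline livers that lacked Eif2s3y the interaction met the call for 198 rows upward and 261 downward, and the calls after LPS were 460 higher and 360 lower, 782 of the 785 among them. All other counts and shares of this paragraph include those 3 livers.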

How the data were processed

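Total liver RNA of 12 mice was measured on Illumina MouseWG-6 v2 arrays. The authors deposited the bead-averaged intensity of each probe before normalization with its detection p-value, and a second table of intensities that the authors normalized by cubic spline in GenomeStudio, whose version is not given in the sources used here. All values here were computed from the unnormalized intensities with limma 3.58.1 in R 4.3.3 (neqc: normexp background correction with negative-control information from the detection p-values, an offset of 16, quantile normalization and log2), and the authors' table served as an alternative. Probes with a detection p under 0.01 on at least 1 of the 6 LPS arrays were kept. At this limit 111 probes lay just inside, with a lowest detection p of 0.009615, and 122 just outside, at 0.01068. Symbols came from the platform annotation, updated by Entrez identifier for 34807 probes. Of 45281 probes 34885 had 1 symbol, 18 had several and 10378 had none, and the brightest detected probe stood for a gene. The mean of each of the 4 groups was estimated in 1 limma fit to all 12 arrays, with moderated variances and Benjamini-Hochberg adjustment over 11104 rows. The position of each array on its BeadChip is not given in the sources used here and no chip could be tested as a batch. Genes undetected on every array of a group were given only a lower bound of their fold, the mean of the brighter group over the higher, on each dim array, of the lowest detected signal and the probe's own. Promoter sequences, 250 bases before the start, came from RefSeq (GRCm38.p6), and 508 of the 649 called named genes had one.

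The members, the gene lists and the rules were chosen with earlier results of these data known, so no pattern here is independent support of another, and genes that the study itself picked from these samples are among them. Named genes were the 15 largest changes in each direction without overlap between groups, up to 8 members that passed from each of 41 lists, key members of each list, and genes the study discusses, 290 in all. Vcam1, Cbx7, Apol10b and Cdc42ep1 were added after their values were seen. Alternatives covered background correction, normalization, the detection filter, probe summary, the arrays fitted, a replicate block and leaving out each liver. A filter on genes detected on all 6 LPS arrays and a fit of only the livers with Eif2s3y detected were added after seeing the data. The number of arrays limits the precision.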

Additional observations from a re-analysis of the deposited data

Results flagged for a closer look

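For 98 of the named genes the KO to IDA ratio after LPS differed from that after saline by limma's interaction contrast (adjusted p under 0.05 and a difference beyond 1 on the log2 scale), 38 upward and 60 downward, with 2.61% and 3.03% of all rows meeting the same rule. The value given for each is the log2 ratio after LPS minus that after saline, from the fit. For the 26 genes undetected in a whole group, 13 of them in an LPS group, the value depends on the background level and is no measured size or bound. The 3 saline livers without detected Eif2s3y enter these values, and without them all 98 kept their sign and 65 still passed.

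Among LPS sensing and NF-kB genes the difference was -2.78 for Tlr2, -2.51 for Cd14, -2.27 for Irak2, -1.10 for Map3k8 and -1.03 for Myd88 among receptors and their signalling, and 1.51 for Tlr5. It was -2.56 for Nfkbiz, -2.56 for Relb, -1.91 for Nfkbia, -1.69 for Nfkb2, -1.52 for Nfkbie, -1.41 for Bcl3 and -1.11 for Rela among NF-kB subunits and inhibitors. Genes that end the response or recruit leukocytes had -4.05 for Tnfaip3, -2.56 for Tnfaip2, -2.23 for Zc3h12a, -1.74 for Icam1 and -1.30 for Irak3. For Cd40, which the study names among genes reduced after LPS, the value was -2.08. Chemokines had -4.25 for Cxcl2, -3.45 for Cxcl1, -2.16 for Ccl3, -1.80 for Cxcl10 and 1.10 for Cxcl12, and the interleukin-1 family -2.45 for Il1r2, -2.03 for Il1rn and -1.97 for Il1b.

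Interferon-induced genes had -2.68 for Rsad2, -2.54 for Mx1, -2.14 for Gbp5, -2.06 for Samhd1, -1.76 for Isg20 and -1.47 for Tgtp1, whereas the value was 6.06 for Gbp2b, and 6.00 for Gbp2b without those 3 saline livers. Genes of the endoplasmic reticulum stress response had -2.45 for Ddit3, -1.99 for Asns, -1.79 for Hyou1, -1.63 for Derl3, -1.46 for Sdf2l1, -1.46 for Creld2, -1.34 for Syvn1 and -1.003 for Hspa5. Immediate-early and stress genes had -4.36 for Gadd45a, -3.88 for Ier3, -2.87 for Junb, -2.47 for Jun, -2.25 for Klf6, -2.15 for Dusp8 and -1.09 for Dusp6. In cytokine signalling, the acute-phase response and the cell cycle the values were -4.01 for Cish, -1.71 for Pim1, -1.70 for Cdkn1a, -1.29 for Socs4 and -1.17 for Steap4. The neutrophil genes had -2.30 for Pglyrp1, -1.18 for Mmp9 and -1.15 for Cxcr2, and the remaining negative values were -4.76 for Elf3, -3.14 for Pde4b, -2.93 for Crybb3, -2.34 for Atg16l2 and -1.10 for Csnk1d. Hamp had the lowest value of these genes, -6.47, with a ratio of 1.99 after LPS and 8.46 after saline, and -5.37 without those 3 saline livers. The 8.46 and -6.47 include IDA saline liver 1, where Hamp lay under the array's lowest detected intensity. The KO levels of Hamp lay near the top of the measured range, so these sizes depend on both limits.

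In the other direction Cyp7a1, detected in 1 of 3 IDA livers after LPS, had 7.60, and 8.68 without those 3 saline livers. Other bile acid, transporter and conjugation genes had 2.14 for Cyp8b1, 1.97 for Nr1i3, 1.86 for Slc10a1, 1.77 for Klb, 1.53 for Sult1c2 and 1.18 for Ugt2b35. Glucose and lipid genes had 3.14 for Ppp1r3g, 2.21 for G6pc, 2.13 for G0s2, 2.13 for Acot3, 1.98 for Slc2a2, 1.15 for Sc5d and 1.07 for Idi1. MHC class II genes had 1.26 for Cd74, 1.24 for H2-Aa, 1.22 for H2-Eb1, 1.17 for H2-Ab1, 1.15 for H2-DMa and 1.11 for H2-DMb1, and genes of macrophages, endothelium and stellate cells 1.92 for Slc40a1, 1.59 for Fcgr2b, 1.58 for Mrc1, 1.39 for Colec11, 1.36 for Clec4g, 1.23 for F8, 1.13 for Vsig4 and 1.05 for Ptprb. Clock outputs had 2.74 for Usp2 and 1.02 for Dbp, and the remaining positive values were 3.16 for Nrep, 2.69 for Dclk3, 2.15 for Clstn3, 1.5 for Fbxo21 and 1.14 for Prss8.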

How the results depend on the processing

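With no fold threshold 1842 rows were higher and 1597 lower in KO livers, and the interaction passed for 636 upward and 645 downward. Without background correction, on quantile-normalized intensities, the counts were 167 and 183 (interaction 119 and 212), and with the authors' normalized intensities 168 and 180 (115 and 213). Among rows detected on all 6 LPS arrays, a filter chosen after seeing the data, they were 210 and 235 (interaction 162 upward). Leaving out 1 liver at a time gave 402 to 467 higher, 302 to 368 lower, and interactions of 229 to 312 upward and 272 to 370 downward. The interaction without the 3 saline livers that lacked Eif2s3y, also chosen after seeing the data, gave 198 upward. The other settings kept each count within 1.5 times. Replicate numbers did not pair the livers, since same-numbered livers had correlations of deviations of -0.02, 0.01 and 0.03 and KO liver 1 correlated best with IDA liver 2 (0.07). The replicate block gave 443 higher and 344 lower, and 8 of the 256 named genes that passed no longer did. Of these 256, 216 passed under every alternative that kept all livers and tested them, and 176 without each LPS liver in turn. Median scaling moved the median log2 ratio of all rows to 0.09. Signs turned only for genes that had not passed or, for Top2a, with no filter on dim probes (-0.44). Median scaling turned Pdgfrb (0.033), and the mean of probes Fn1 (0.089) and Per1 (-0.119). Without 1 liver at a time the ratio ranged from -0.290 to 0.119 for Pdgfrb, -0.118 to 0.116 for Fn1, -0.050 to 0.168 for Per1, -0.516 to 0.147 for Egr1, -0.205 to 0.064 for Igf1, -0.0071 to 0.033 for Cyp2e1, -0.102 to 0.255 for Ppara, -0.031 to 0.073 for Cox4i1 and -0.391 to 0.137 for Timp1, so that each turned in at least 1 case. The cause of these changes was not tested.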

Other observations

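The 785 called rows included probes without a gene symbol in the annotation used here, 73 higher and 63 lower in the KO livers. The largest increase among them, probe ILMN_1251714, had log2 intensities of 9.65, 9.80 and 10.07 in the KO livers, against 5.20, 5.56 and 5.17 in the IDA livers, where it was undetected (limma's adjusted p = 6.28e-06). Probe ILMN_1233896 had 5.75, 6.27 and 5.22 in the KO livers, detected in 1 of 3, against 8.74, 8.90 and 8.69 in the IDA livers (log2 ratio -3.03, limma's adjusted p = 1.13e-05). Both probes were chosen after their values were seen.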
